A study of Gallus gallus with 14 samples.

Results

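The W chromosome of birds is carried by females alone: hens have a Z and a W, cocks have a pair of Z chromosomes. W genes are survivors of the ordinary chromosome pair from which Z and W arose, and many still have a Z partner that encodes nearly the same protein. HINTW is the best known exception, a gene that was amplified on W and whose product lost the catalytic motif of its Z partner, a histidine triad nucleotide-binding protein. The genes described here are the rows of the retinal expression table on the same sequence as HINTW, which the RefSeq table places on chromosome W: 48 of 18631 rows, beside 879 rows on Z. Of the 48 rows, 39 are annotated with a coding sequence and 9 as noncoding RNA, 15 have a symbol and 33 are known by number only.

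Retinas came from wild type White Leghorn chicks whose age label is postnatal day 3. The lens group, 7 libraries, wore a lens of -10 D for 3 days, which drives the eye to elongate, and the control group also held 7 libraries. It is not labelled whether control retinas came from other chicks or from fellow eyes, and lens and control sample codes share no number. Sex is not labelled, and HINTW above 50 CPM (reads scaled to the library total) was used to call a library female. By that rule 5 libraries were female, lens replicate 4 and control replicates 2, 3, 4 and 7, and the other 9 were male, so 1 of 7 lens libraries and 4 of 7 control libraries were female. HINTW made the split, so its own difference between female and male libraries is a description and no p is given for it.

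Libraries held 30.8 to 41.4 M reads, as read from the step in the values that is worth 1 read, and a floor of 3 reads corresponds to 0.0724 to 0.0973 CPM (counting error only). Markers of photoreceptors summed to 685 to 1200.1 CPM in female and 760 to 1126 CPM in male libraries, and those of Müller glia to 760 to 925 CPM and 807 to 892 CPM. Of the 9 photoreceptor markers tested, 1 differed between female and male libraries, PDE6B, a phosphodiesterase subunit of rods that lies on Z like the partners described below (log2 difference -0.64, limma adjusted p = 0.00111); no marker of the 8 other cell types with tested rows did. In whole retina, fewer cells of a type and less RNA per cell cannot be told apart. The labels do not say that samples came from separate animals, so p-values measure the spread between these samples. Positions are those of the deposited table, for which the submitters' processing notes name GRCg6a, and gene lengths were not given, so a difference in CPM between genes is one of reads, in which transcript length has a part.

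W-linked RNA was abundant in all 5 female libraries and nearly absent from the 9 others. The 48 rows summed to 642 CPM in lens replicate 4 and to 648, 644, 705 and 668 CPM in control replicates 2, 3, 4 and 7, a mean of 661 ± 26.5 CPM (SD, n = 5) that made up 0.207% of the listed CPM. In the male libraries the sum lay between 1.35 and 3.74 CPM. HINTW alone supplied 20.2 ± 1.45% of the W-linked sum in the female libraries (SD, n = 5). HINTW, NIPBLL and CHDB1 together supplied 40.2% to 44.04% of it.

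**Figure D1:**
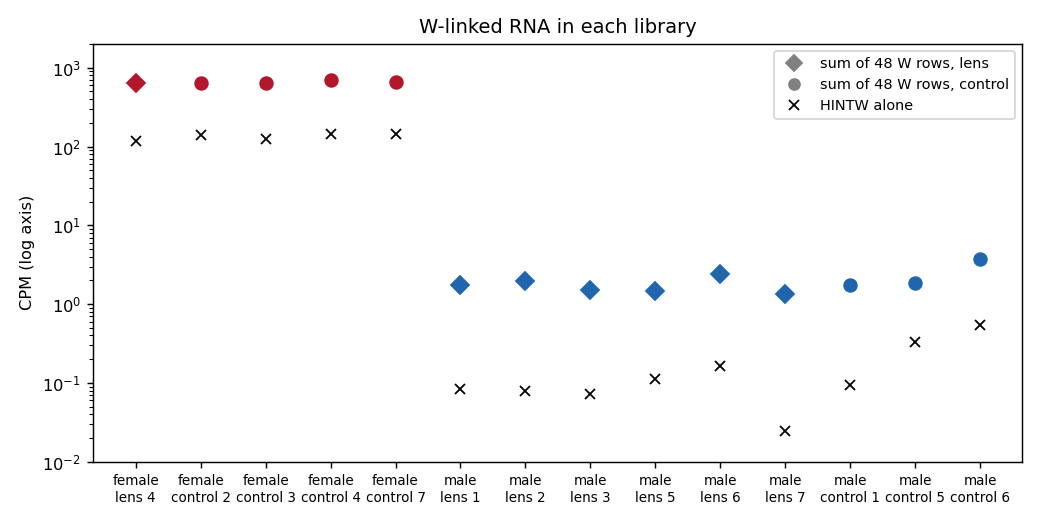
Summed CPM of the 48 W-linked rows (diamonds for lens, circles for control libraries) and of HINTW alone (crosses) on a log axis, with the female libraries on the left and the male libraries on the right. The female sums lie between 642 and 705 CPM and the male sums between 1.35 and 3.74 CPM.

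W-linked genes differed in how much their level varied among the female libraries. HINTW, which spans 1839400 to 1896966, stood at 117 CPM in lens replicate 4 and at 139, 126, 143 and 145 CPM in control replicates 2, 3, 4 and 7, against 0.0243, 0.0955 and 0.549 CPM as the lowest, median and highest male values. Every female library lay far above every male one. Over the 35 rows with a female mean of at least 0.5 CPM, the coefficient of variation across the 5 female libraries ranged from 4.69% for RPTC15L to 26.2% for LOC112530489, with a median of 11.4%. LOC112530489 overlaps LOC112530488 on the same strand, so its spread may hold reads shared between these rows. LOC112530488 stood at 0.000158 CPM in lens replicate 4 and 0.000554, 0.201, 0.124 and 0.209 CPM in the control females. RPTC15L (5302776 to 5319797) was the steadiest, at 37.4 CPM in lens replicate 4 and 34.9, 38.2, 38.9 and 35.4 CPM in the control females. The 13 Z partners described below had a similar range in the same libraries, from 6.02% for SPIN1Z to 22.4% for LOC407092.

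Of the 48 rows, 38 passed the filter on low values, a filter that a gene present in the female libraries alone can pass. It required 0.5 CPM of the listed reads in at least 5 libraries, which is 0.152 to 0.167 on the CPM scale used here. Limma with treatment as a covariate put 36 of the 38 rows higher in female libraries (adjusted p under 0.05), HINTW included, where 0.484% of all genes tested were higher. The split and the filter fix that count, and nothing is read from it: with 7 libraries required, 2 of the rows were tested, and HINTW was the 1 called. In 39 of the 48 rows every female library lay above every male library, which held for 0.440% of all rows and 0.491% of the genes tested. HINTW shares the chromosome with the other members, so these counts describe them and are not independent of the split. The 10 rows below the filter had female means of 0.0217 to 0.465 CPM.

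**Figure D2:**
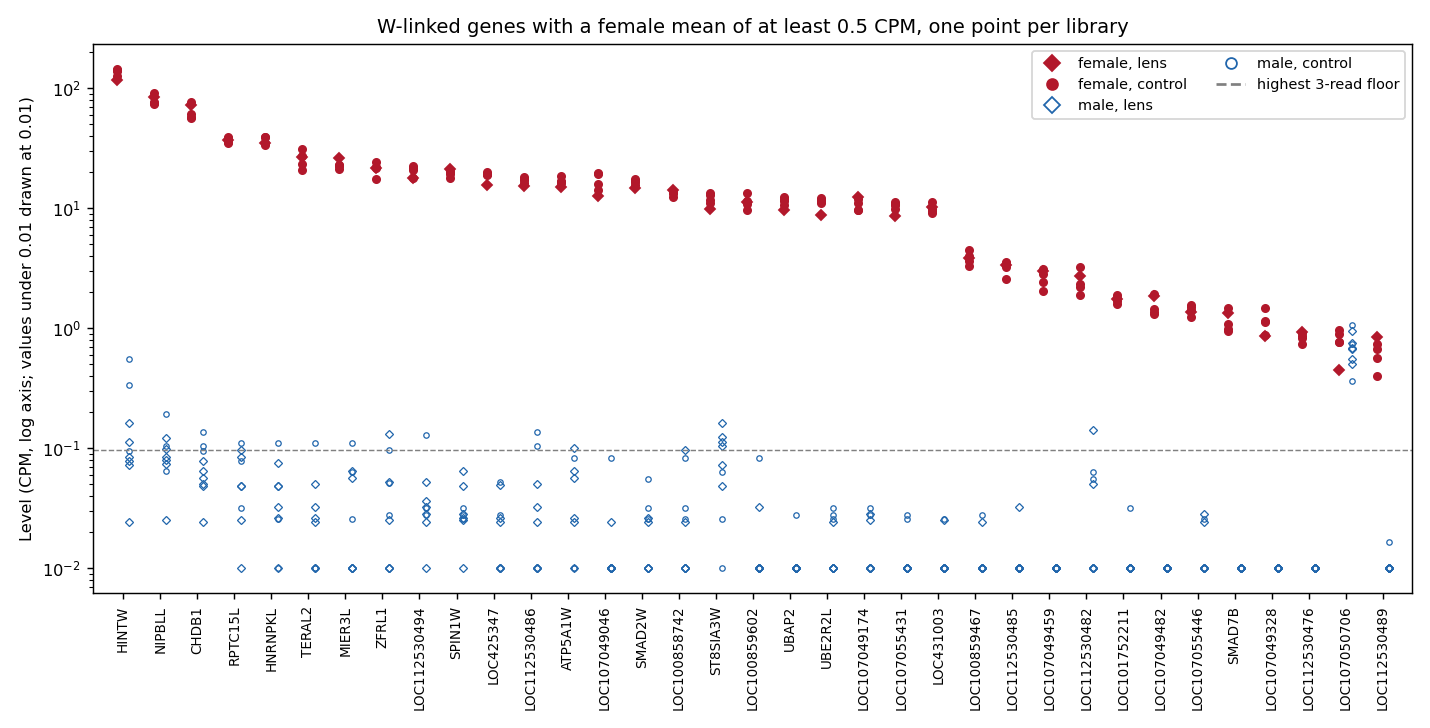
Level of the 35 W-linked rows with a female mean of at least 0.5 CPM, 1 point per library, on a log axis with values under 0.01 CPM drawn at 0.01. Female libraries are red and filled, male libraries blue and open, diamonds are lens and circles control. LOC107050706 is the row where both colours lie at the same height.

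For 13 W genes a Z partner with a row was matched by name or gene ID. The output of both copies in females could there be set against that of the Z copies in males. None of the W rows known by number was paired, so other W genes may have a Z row that was not matched. For 11 of these 13 the partner follows from the symbol or a RefSeq synonym. LOC407092 was matched to UBAP2Z by its gene ID, and VCP to TERAL2 through TERA, a protein name of VCP. How reads that match both copies were counted is not given in the sources used here. Reads of one copy counted on the other would change the Z differences and the W shares. Of the 13 Z copies 11 were lower in female libraries (limma, adjusted p under 0.05), where 2.43% of all genes tested were lower, and 2 did not pass. Their median log2 difference was -0.56, beside -0.36 over the other 674 Z genes tested, of which 334 (49.6%) were lower, and 0.03 over the genes on other chromosomes. These medians are of log2(CPM + 1), which understates changes of low genes, and the sets were not matched for level. The Z copies in females reached 51.1% to 101.1% of the male mean, with a median of 68.2%.

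**Figure D3:**
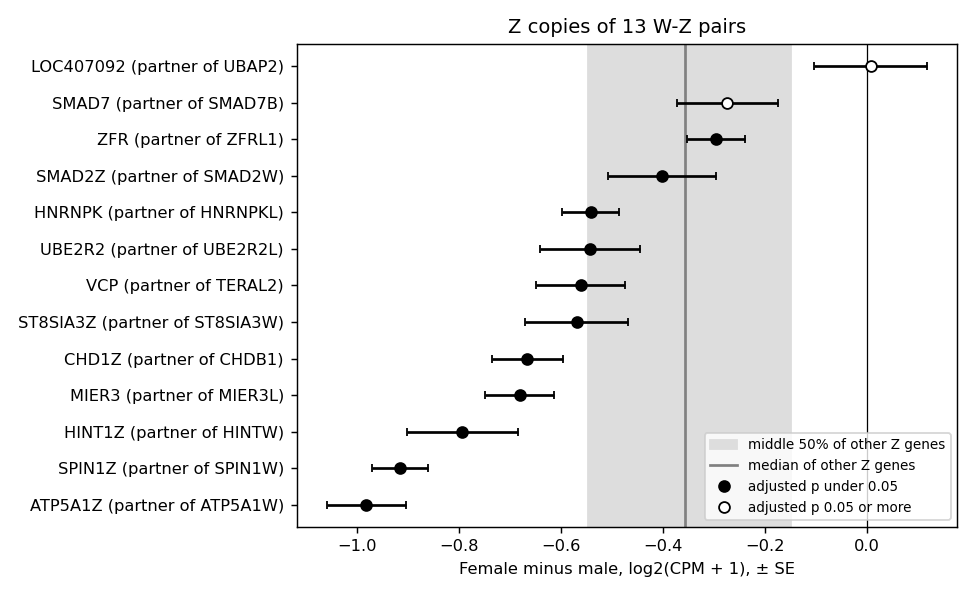
Log2 difference, female minus male, of the Z copy of each pair with its standard error (limma, 14 libraries). The grey band holds the middle 50% of the other Z genes and the grey line their median of -0.36. ATP5A1Z and SPIN1Z lie at the low end and LOC407092 at 0.0072.

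When W and Z reads of a pair were added, the sum of HINTW and HINT1Z followed the split and is a description. Of the 12 other sums, 8 were higher in female libraries than in male libraries, 2 were lower and 2 did not pass (exact permutation of the female label, 2002 assignments, two-sided, p adjusted over the 13 pairs). Adjusting over these 12 changed 0 of the calls. Each of the 12 sums also holds a W copy nearly absent from males, so these calls are not independent of the split. In the ST8SIA3 and SMAD2 pairs the lowest W value in females (9.94 and 14.7 CPM) lay above the highest male sum (4.14 and 14.2 CPM). The permutation p of those sums was thus fixed by the W copy alone. The permutation did not account for treatment, although 4 of the 5 female and 3 of the 9 male libraries were controls. Limma with treatment as a covariate, chosen after seeing the data, passed 10 of the 13 sums, the HINT pair among them. The smallest p the permutation allows is 0.0005. Of the 10 sums among the 12 that passed by permutation, 8 reached it, at 0.000722 after adjustment. The p-values of the CHDB1 and ATP5A1W sums were larger. The median log2 difference was 0.41 over the 12 sums and 0.52 with the HINT pair. Reads were not divided by length, so a longer W or Z transcript weighs more in a sum. In control libraries alone, 4 female and 3 male, all 13 Z differences but that of LOC407092 were below 0, and 7 of the 12 other sums passed. Each of the 7 had the same adjusted p, the smallest among the 12 (exact permutation, 0.049). With 4 female and 3 male libraries a sum can pass at the smallest p of this test alone. A sum that did not pass there is therefore not shown to be equal in both sexes. Adjusted p-values given below for single sums in controls are over the 13 pairs.

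**Figure D4:**
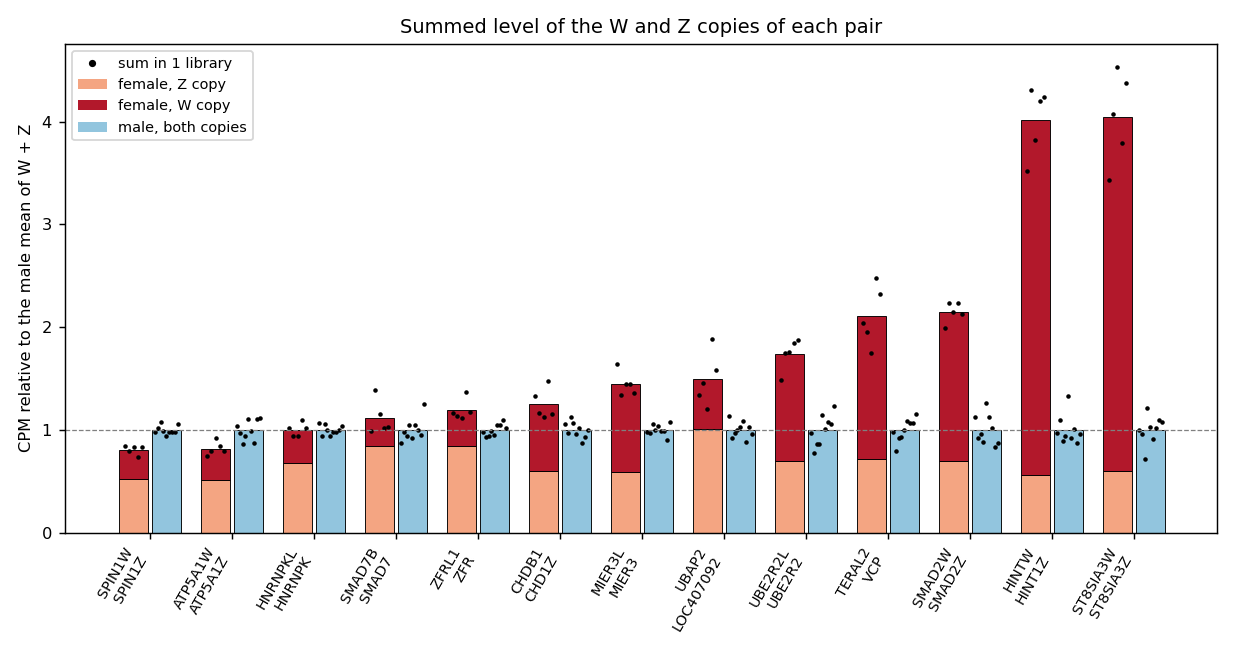
CPM of the Z copy (light) and W copy (dark) in female libraries beside the sum of both copies in male libraries, each divided by the male mean of the pair, with dots for single libraries. The female means of the SPIN1 and ATP5A1 pairs lie below the male mean of 1, that of the HNRNPK pair lies at 1.002, and those of the HINT and ST8SIA3 pairs reach 4.02 and 4.04.

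The HINT and ST8SIA3 pairs had the highest ratio of female to male summed reads among the 13. HINT1Z, the Z partner of HINTW (Z, 44911216 to 44915213), stood at 19.4 CPM in lens replicate 4 and 27.6, 22.2, 19.8 and 19.2 CPM in the control females, against male values of 33.6, 36.7 and 51.5 CPM (lowest, median and highest). The groups did not overlap, and HINT1Z was lower in female libraries (log2 difference -0.79, SE 0.11, limma adjusted p = 8.31e-05). HINTW and HINT1Z together reached 155.5 ± 13.1 CPM in female and 38.7 ± 5.48 CPM in male libraries (SD, n = 5 and 9), 4.02 times as much. ST8SIA3W (6538043 to 6552494) belongs to a family of sialyltransferases that build sialic acid chains on glycans. It stood at 9.94 CPM in lens replicate 4 and 11.7, 13.4, 11.1 and 12.9 CPM in the control females, with 0 to 0.162 CPM in males. Its male mean was 0.674% of the female mean, against 0.126% for HINTW. The partner ST8SIA3Z was lower in females, with a log2 difference of -0.57 (SE 0.10, limma adjusted p = 0.00136). The pair summed to 13.8 ± 1.51 CPM in female and 3.42 ± 0.465 CPM in male libraries (SD, n = 5 and 9), and W reads made up 85.2 ± 1.01% of the female sum.

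NIPBLL, CHDB1, SPIN1W and MIER3L encode relatives of proteins that act on chromatin or transcription. NIPBLL (4788268 to 4948400) is named after NIPBL, the factor that loads cohesin onto DNA, and no Z partner was matched to it. It stood at 84.1 CPM in lens replicate 4 and at 74.6, 76.0, 90.5 and 77.2 CPM in the control females, against 0.0251, 0.0851 and 0.194 CPM as the lowest, median and highest male values. CHDB1 (4989932 to 5105613), the W copy of the chromatin remodeller CHD1 that is widely used to sex birds, stood at 72.7 CPM in lens replicate 4 and 56.5, 57.2, 77.0 and 61.3 CPM in control females, with males at 0.0243 to 0.137 CPM. CHD1Z had 61.6 CPM in lens replicate 4 and 60.3, 55.7, 71.2 and 55.2 CPM in control females, against 87.5, 101 and 113 CPM as the lowest, median and highest male values. No female library reached the lowest male level of CHD1Z, and the log2 difference was -0.67 (SE 0.07, limma adjusted p = 2.99e-06). The CHD1 pair summed to 126 ± 15.1 CPM in female and 101 ± 7.85 CPM in male libraries (SD, n = 5 and 9; log2 difference 0.31, exact permutation adjusted p = 0.0013), with the lowest female sum of 112.9 CPM just under the highest male sum of 113.3 CPM.

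SPIN1W (5939316 to 6052603) encodes a W copy of spindlin, a reader of methylated histone H3. It stood at 21.3 CPM in lens replicate 4 and 20.1, 20.3, 17.7 and 19.2 CPM in the control females, with males at 0 to 0.0649 CPM. SPIN1Z had 37.1 CPM in lens replicate 4 and 34.5, 37.2, 33.1 and 38.4 CPM in the control females, against 64.7, 67.9 and 74.5 CPM as the lowest, median and highest male values, 52.3% of the male mean (log2 difference -0.92, SE 0.05, limma adjusted p = 1.19e-09). With the W reads added the pair still stood lower in females: it summed to 55.8 ± 3.13 CPM in female and 69.02 ± 3.09 CPM in male libraries (SD, n = 5 and 9; log2 difference -0.30, exact permutation adjusted p = 0.000722), and the sums did not overlap. MIER3L (4214767 to 4365373) is named after MIER3, a protein of the MIER family of transcriptional corepressors. It stood at 26.3 CPM in lens replicate 4 and 21.3 to 23.1 CPM in the control females, with males at 0 to 0.110 CPM. MIER3 itself reached 16.1 ± 1.698 CPM in female and 27.1 ± 1.40 CPM in male libraries (SD, n = 5 and 9; log2 difference -0.68, SE 0.07, limma adjusted p = 1.72e-06), and the pair summed to 39.3 ± 3.26 CPM in female and 27.1 ± 1.42 CPM in male libraries (log2 difference 0.52, exact permutation adjusted p = 0.000722).

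HNRNPKL and ZFRL1 are named after RNA-binding proteins, and both Z copies were lower in female libraries. HNRNPKL (4703885 to 4724024), from a family that binds cytosine-rich RNA, stood at 35.2 CPM in lens replicate 4 and 33.8, 35.1, 39.1 and 39.2 CPM in control females, with males at 0 to 0.110 CPM. HNRNPK had 80.6 CPM in lens replicate 4 and 73.8, 71.8, 85.7 and 76.7 CPM in control females, against 107, 114 and 122 CPM as the lowest, median and highest male values (log2 difference -0.54, SE 0.06, limma adjusted p = 2.94e-06). The pair summed to 114.2 ± 7.33 CPM in female and 114.0 ± 5.42 CPM in male libraries (SD, n = 5 and 9). That log2 difference, 0.0019, did not pass (exact permutation p = 0.964 after adjustment), and its sign turned under other scalings. ZFRL1 (5153701 to 5259637), named after the zinc finger RNA-binding protein ZFR, averaged 21.4 ± 2.48 CPM in female libraries (SD, n = 5). ZFR was lower in females by less than most partners, at 51.3 ± 4.47 CPM in female and 61.04 ± 3.42 CPM in male libraries (SD, n = 5 and 9; log2 difference -0.30, limma adjusted p = 0.00339). The ZFR pair summed to 72.7 ± 6.12 CPM in female and 61.1 ± 3.42 CPM in male libraries (exact permutation adjusted p = 0.000722). The sum did not pass in the limma fit of sums with treatment as a covariate (adjusted p = 0.0732) or in control libraries alone (exact permutation adjusted p = 0.0743), nor did ZFR itself in control libraries alone (limma adjusted p = 0.114). The control sums of the pair did not overlap, at 68.2 to 83.4 CPM in female and 62.5 to 67.04 CPM in male libraries.

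The TERAL2, UBE2R2L and UBAP2 pairs belong to protein turnover by ubiquitin or bind it, and their sums were all higher in females. TERAL2 (3607608 to 3662600) is paired with VCP, an ATPase that extracts ubiquitin-tagged proteins from complexes and membranes. TERAL2 stood at 26.6 CPM in lens replicate 4 and 23.4, 20.9, 31.1 and 27.1 CPM in control females, with males at 0 to 0.110 CPM. VCP averaged 13.2 ± 2.05 CPM in female and 18.5 ± 2.03 CPM in male libraries (SD, n = 5 and 9; log2 difference -0.56, limma adjusted p = 0.000358), and the pair summed to 2.11 times the male level. UBE2R2L (67936 to 141539) is named after UBE2R2, a ubiquitin-conjugating enzyme that works with cullin ligases. It stood at 8.74 CPM in lens replicate 4 and 11.04, 12.1, 11.6 and 11.4 CPM in the control females, against 0 to 0.0318 CPM in males. UBE2R2 was at 70.2% of its male level in females (log2 difference -0.54, limma adjusted p = 0.00168), and the summed reads of the pair reached 1.74 times the male level.

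The row UBAP2 (2474 to 48084), a W gene for a ubiquitin-associated protein, stood at 9.66 CPM in lens replicate 4 and at 11.9, 10.6, 12.4 and 11.4 CPM in control females. A single read was found for it in the 9 male libraries together. Its partner LOC407092 (Z, 7358700 to 7496590) and SMAD7 were the Z copies that did not pass. LOC407092 stood at 21.4 CPM in lens replicate 4 and 21.7, 17.2, 31.2 and 25.3 CPM in control females, against 20.3, 23.0 and 26.1 CPM as the lowest, median and highest male values. The log2 difference was 0.0072 (SE 0.11, limma adjusted p = 0.991), its sign turned under other scalings, and the female libraries spanned the whole male range. With the W reads added, the UBAP2 pair reached 34.6 ± 6.03 CPM in female and 23.1 ± 1.80 CPM in male libraries (SD, n = 5 and 9; log2 difference 0.55, exact permutation adjusted p = 0.000722). That sum did not pass in control libraries alone (exact permutation adjusted p = 0.0743). The control sums did not overlap, at 27.8 to 43.6 CPM in female and 20.3 to 23.7 CPM in male libraries (log2 difference 0.64).

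SMAD2W and SMAD7B are W genes of TGF-beta signalling, in which SMAD2 carries the signal of activin and TGF-beta receptors and SMAD7 inhibits it. SMAD2W (6650804 to 6715920) stood at 14.7 CPM in lens replicate 4 and 15.8, 17.4, 16.9 and 16.6 CPM in control females, with males at 0 to 0.0549 CPM. SMAD2Z reached 7.85 ± 1.01 CPM in female and 11.2 ± 1.63 CPM in male libraries (SD, n = 5 and 9; log2 difference -0.40, SE 0.11, limma adjusted p = 0.047). That call was close to the threshold and was lost in controls alone (adjusted p = 0.391) and without any 1 of 9 libraries. The SMAD2 pair summed to 24.1 ± 1.14 CPM in female and 11.2 ± 1.62 CPM in male libraries (exact permutation adjusted p = 0.000722). SMAD2W alone lay above every male sum in each female library, so that p follows the split and is a description. SMAD7B (2602132 to 2628700) stood at 1.34 CPM in lens replicate 4 and 1.46, 1.08, 0.942 and 0.982 CPM in control females, and no read was found in any male library, at least 11.9-fold higher when the 3-read floor of the shallowest male library is used. SMAD7 averaged 3.68 ± 0.602 CPM in female and 4.35 ± 0.475 CPM in male libraries (SD, n = 5 and 9) and did not pass (log2 difference -0.27, limma adjusted p = 0.249), nor did the sum of the pair (log2 difference 0.12, exact permutation adjusted p = 0.146). Without control replicate 6, a male library, the sum passed (exact permutation adjusted p = 0.021).

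ATP5A1W (1391533 to 1453514) encodes a W copy of the alpha subunit of mitochondrial ATP synthase. It stood at 15.1 CPM in lens replicate 4 and 17.001, 18.7, 16.4 and 16.2 CPM in the control females, with males at 0 to 0.0999 CPM. ATP5A1Z (Z, 2151344 to 2159327) had 25.3 CPM in lens replicate 4 and 25.8, 31.2, 29.1 and 26.9 CPM in control females, against 46.9, 53.8 and 60.4 CPM as the lowest, median and highest male values. The groups stood well apart, and the log2 difference was -0.98 (SE 0.08, limma adjusted p = 9.42e-08). The pair summed to 44.3 ± 3.59 CPM in female and 54.2 ± 5.36 CPM in male libraries (SD, n = 5 and 9; log2 difference -0.28, exact permutation adjusted p = 0.00531), with overlapping values. In control libraries alone that sum did not pass (log2 difference -0.29, exact permutation adjusted p = 0.101).

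The share of a pair's reads that came from W varied more between female libraries in some pairs than in others. It ranged from 36.1% to 39.7% for the ATP5A1 pair, from 30.4% to 33.8% for the HNRNPK pair and from 83.5% to 88.3% for the HINT pair. The range was wider for the UBAP2 pair (28.4% to 38.1%), the SMAD2 pair (62.7% to 72.2%), the UBE2R2 pair (55.6% to 65.5%), the VCP pair (63.1% to 70.5%) and the ZFR pair (25.7% to 31.7%). The MIER3, CHD1, SPIN1 and ST8SIA3 pairs lay at 57.4% to 62.5%, 48.4% to 54.1%, 33.3% to 36.8% and 83.9% to 86.2%. The SMAD7 pair was the most variable relative to its level, from 31.4% in lens replicate 4 to between 21.2% and 24.3% in the control females. SMAD7B had 221 reads over the female libraries, the fewest of the paired W genes, so counting error has a part in that spread. Shares are of reads, were not corrected for length and may hold reads counted on the wrong copy.

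Among the rows known by number, 9 had a female mean of 9.97 to 20.1 CPM. LOC112530494, a noncoding RNA of 20.1 ± 2.29 CPM in female libraries (SD, n = 5), lies inside the span of HINTW on the opposite strand, and LOC112530486, at 16.97 ± 1.14 CPM, lies inside HNRNPKL on the same strand. Whether the counting used strand is not given in the sources used here, so reads of these overlapping rows cannot be told apart with certainty. In all 7 pairs of the 48 rows overlap, among them the noncoding LOC107055446 (1.42 ± 0.128 CPM) inside ZFRL1. Others were LOC425347 (18.6 ± 1.73 CPM), LOC107049046 (16.3 ± 3.11 CPM), LOC100858742 (13.5 ± 0.671 CPM) and LOC100859602 (11.3 ± 1.36 CPM). LOC107049174 averaged 10.9 ± 1.25 CPM, LOC107055431 10.2 ± 1.07 CPM and LOC431003 9.97 ± 0.868 CPM in female libraries (SD, n = 5 each). In none of these did a male library exceed 0.137 CPM.

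Lower in the range, LOC100859467 averaged 3.86 CPM, LOC112530485 3.24 CPM, LOC107049459 2.68 CPM and LOC112530482 2.48 CPM in female libraries. LOC101752211, LOC107049482 and the noncoding LOC107049328 and LOC112530476 averaged 1.75, 1.58, 1.10 and 0.853 CPM. LOC112530489, at 0.641 CPM, overlaps LOC112530488 on the same strand. In 8 of the 48 rows no read was found in any male library, which allows up to 0.0725 to 0.0973 CPM per male library. LOC107049459 and LOC107049482 had the highest CPM of these, at least 27.6-fold and 16.2-fold higher in females against the floor of the shallowest male library.

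A few W-linked rows did not follow the pattern. LOC107050706 (3574066 to 3593077) stood at 0.448 CPM in lens replicate 4 and 0.968, 0.762, 0.773 and 0.902 CPM in control females, against 0.361, 0.680 and 1.07 CPM as the lowest, median and highest male values. Its male mean was 90.3% of the female mean, the log2 difference was 0.012 (limma adjusted p = 0.982), and the sign turned under other scalings. LOC112530483 averaged 0.194 ± 0.118 CPM in female and 0.118 CPM in male libraries and was the other tested row that did not pass (log2 difference 0.11, limma adjusted p = 0.764). LOC112530484 and LOC107055438, both below the filter, had male means of 0.0984 and 0.0297 CPM beside female means of 0.0886 and 0.0217 CPM. LOC107055485 was uneven among females, at 0.276 CPM in lens replicate 4 and 0.00955, 1.14, 0.622 and 0.278 CPM in control females. Its reads in the female libraries came to 89.85, not a whole number, and sharing of reads with other rows was not tested.

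Male libraries held a trace of the other W rows as well. Summed over the 39 rows whose female and male values did not overlap, the male libraries lay at 0.0738% to 0.339% of the female mean. Control replicate 6 was highest (2.23 CPM), then control replicate 5 (1.31 CPM) and lens replicate 6 (1.27 CPM). Of these sums HINTW supplied 0.549 CPM in control replicate 6 and 0.335 CPM in control replicate 5, against 0.0243 to 0.162 CPM in the other male libraries. The source of these reads was not tested.

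Lens and control retinas were compared with female or male status as a covariate, since the groups hold different numbers of female libraries. For W rows this fit can show little, because 1 lens library is female and the near-zero values of 9 male libraries enter with it. Limma called 0 of the 38 tested W rows (adjusted p under 0.05), with 1 at an unadjusted p under 0.05, where 0.102% of all genes tested passed the adjusted and 11.1% the unadjusted threshold. The log2 differences, lens minus control, ranged from -0.26 to 0.05 with a median of -0.01, beside -0.03 over all genes tested. The lowest was that of HINTW (log2 difference -0.26, SE 0.09, limma adjusted p = 0.31). Without lens replicate 4 no lens female is left, and the difference of HINTW, -0.27, then rests on male values alone. These were 0.0955, 0.335 and 0.549 CPM in the control males and 0.0243 to 0.162 CPM in the lens males. Without control replicate 6 the difference of HINTW was -0.18, and with a pseudocount of 0.1 over all libraries it was -0.82.

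Lens replicate 4 was therefore also set beside the 4 control females without a test, since 1 library has no spread of its own. It lay below all 4 control females for 14 of the 38 tested rows and above all 4 for 6, where 38.2% and 12.2% of all genes tested did so. Both counts are near those shares, so the place of a single W gene is a description and nothing is read from it. The listed CPM of lens replicate 4 also had a lower sum, 305839, against 314829 to 333242 in the control females. HINTW (117 CPM against 126 to 145 CPM), UBE2R2L (8.74 CPM against 11.04 to 12.1 CPM), ST8SIA3W (9.94 against 11.1 to 13.4 CPM), SMAD2W, ATP5A1W and UBAP2 were below. MIER3L (26.3 against 21.3 to 23.1 CPM) and SPIN1W (21.3 against 17.7 to 20.3 CPM) were above, and NIPBLL, CHDB1, RPTC15L, HNRNPKL, TERAL2, ZFRL1 and SMAD7B were within the range of the control females.

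**Figure D5:**
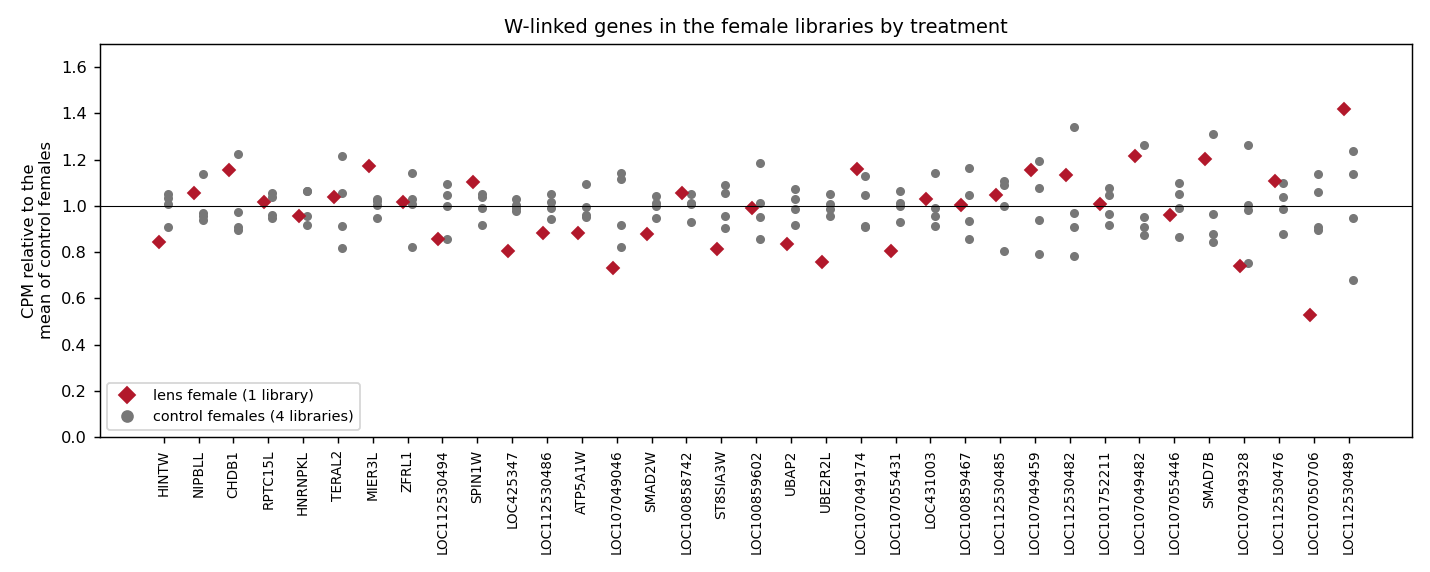
CPM of the 35 W-linked rows with a female mean of at least 0.5 CPM, divided by the mean of the 4 control females: red diamonds are the single lens female, grey circles the control females. The lens female lies on both sides of 1, with LOC107050706 lowest and LOC112530489 highest. LOC112530489 may share reads with LOC112530488, which it overlaps on the same strand.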

How the data were processed

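Total RNA of 14 retinas was sequenced after depletion of ribosomal RNA with a stranded kit, per the labels' protocols. The submitters' processing notes name STAR, Partek and GRCg6a; versions, annotation and counting are not given in the sources used here. The authors deposited CPM plus an offset of 0.0001, as read from the values; the offset was taken off. Of values below 200 reads, 92.8% to 93.6% per library lay within 0.02 of a whole number of reads. The female and male libraries entered limma (version 3.58.1, R version 4.3.3, trended variance) on log2(CPM + 1), with treatment as a covariate, over 14665 genes with at least 0.5 CPM of the column sum in 5 libraries; p-values were adjusted by Benjamini-Hochberg. Folds on this scale understate changes of low genes. Sums of W and Z CPM were tested by exact permutation over 2002 assignments, without treatment as a covariate. Other software was SciPy 1.17.1, pandas 2.3.3, NumPy 2.4.6, matplotlib 3.10.9 and Python 3.11.15. The limma fit was tried on simulated data, in which the changed genes were present in male libraries. No simulated gene behaved as the W rows do, so that trial does not bear on them. Of 48 W symbols, 26 are in RefSeq's GRCg7b table, used for names. Members with at least 0.5 CPM in females, and those with a matched Z row, were named. Members and lists were chosen with earlier results of these data known. Alternatives were other pseudocounts, filters, scalings, covariates and variance models, voom, controls only and leaving out each library.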

Additional observations from a re-analysis of the deposited data

Results flagged for a closer look

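Dixon's rule was applied to 90 groups of values, the 5 female or 9 male libraries of each quantity, and 9 held a library far from the rest. Its chance rate of about 1 in 20 groups is for independent, normally distributed values. Some groups here share values and others hold a few reads, so the 9 flags are not set against that rate. Among females, LOC425347 stood at 15.6 CPM in lens replicate 4, against 18.9 to 19.97 CPM in the control females. In control replicate 4 ZFR stood at 59.0 CPM (47.4 to 50.7 CPM in the other females), and its sum with ZFRL1 at 83.4 CPM (68.2 to 71.9 CPM). Among males, control replicate 6 stood apart in the W-linked sum (3.74 CPM, against 1.35 to 2.41 CPM), in TERAL2 (0.110 CPM, against at most 0.0499 CPM) and in SMAD7 (5.44 CPM, against 3.81 to 4.54 CPM). HINT1Z was highest in lens replicate 6 at 51.5 CPM, against 33.6 to 42.5 CPM. LOC112530494 reached 0.129 CPM in control replicate 5 (at most 0.0525 CPM elsewhere) and LOC112530482 0.141 CPM in lens replicate 1 (at most 0.0637 CPM elsewhere).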

How the results depend on the processing

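The count of 36 W-linked rows higher in females was 1 of 2 rows tested when 7 libraries had to reach the filter, since only 5 libraries are female. It was 35 to 38 under the other alternatives. The split and the filter fix this count, so nothing is read from its steadiness. The 0 members that differed between lens and control stayed at 0 under all alternatives run, in a fit with 1 lens female that says little of these rows. The 11 lower Z copies became 9 in controls alone and 10 to 11 otherwise, and the 11 sums that passed, the HINTW pair among them, 10 without that pair (chosen after seeing the data), 8 in controls alone, 10 by limma with the treatment covariate (chosen after seeing the data) and 11 to 12 otherwise. The median Z difference of -0.56 was -0.45 with a pseudocount of 5, -0.51 without the treatment covariate and -0.64 with voom on recovered reads, and -0.58 to -0.52 when 1 library was left out. The median sum difference of 0.52 was 0.41 without the HINTW pair, 0.46 with a pseudocount of 5, 0.46 with autosomal genes scaled to the same sum, and 0.46 to 0.54 without 1 library, lowest without control replicate 4. The HNRNPK sum, 0.0019, was -0.039 by median ratio, -0.051 by equal autosomal sum, -0.029 by quantile scaling, -0.011 in controls alone and -0.031 to 0.025 without 1 library. LOC407092, 0.0072, was -0.013 by median ratio, -0.0039 by quantile, -0.036 by equal autosomal sum, -0.0074 without the covariate, -0.0026 with a covariate for the code's final letter, -0.018 by voom and -0.085 to 0.089 without 1 library. LOC107050706, 0.012, was -0.00069 by quantile, -0.0075 by equal autosomal sum and -0.10 to 0.12 without 1 library. The call of SMAD2Z was lost with a pseudocount of 5, other filters, controls alone, and without lens replicate 1, 3, 4 or 7 or control replicate 1, 3, 4, 6 or 7 (adjusted p = 0.0511 to 0.391). The sum of the SMAD7 pair passed without control replicate 6 (adjusted p = 0.021). In controls alone the sums of the ATP5A1, UBAP2 and ZFR pairs and the Z copy ZFR did not pass (adjusted p = 0.101, 0.0743, 0.0743 and 0.114). The permutation of so few libraries can pass at its smallest p alone, and the UBAP2 and ZFR sums did not overlap between female and male controls. The cause of these changes was not tested. The edgeR test was not run. With the offset taken off, 92.8% to 93.6% of values below 200 reads per library, and not all, lay near whole numbers of reads. No paired analysis was possible because lens and control codes share no number.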

Other observations

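Outside the W sequence, 10 rows showed the same pattern of presence in female libraries, with more than 0.1 CPM in every female and every male far below the lowest female. They were found by looking for the pattern, so no test is given. All 10 are annotated as noncoding RNA and lie on chromosome Z between 27178701 and 27398263, a stretch of 220 kb that holds 15 rows of the table. LOC100859072 (27313208 to 27329640) had the highest CPM, at 68.7 ± 10.2 CPM in female libraries (SD, n = 5) and at most 0.284 CPM in male ones. LOC112530612 stood at 12.3 ± 2.08 CPM and LOC112530611 at 10.8 ± 1.03 CPM in females, with male maxima of 0.0360 and 0.0492 CPM, and LOC107052260 at 5.97 ± 0.471 CPM with a male maximum of 0.0262 CPM. The other 6 averaged 0.605 to 1.54 CPM in females. The 5 remaining rows of the stretch were lower, with female means of 0.0110 to 0.164 CPM and male means of 0 to 0.00313 CPM.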
